A study of Mus musculus with 9 samples.

Results

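The members described here are 9 Sox genes, Sox2, Sox4, Sox5, Sox6, Sox8, Sox9, Sox10, Sox11 and Sox12, which were found on the array by gene name, by an older name or by RefSeq accession in the array's own annotation. They are 9 of 27670 gene names on the array and were covered by 25 of its 41174 probes. Gene expression was measured in lumbar L3/L4 dorsal root ganglia (DRG) of adult mice, 4 uninjured samples and 5 injured samples taken 3 days after transection of the sciatic nerve. All samples carried the same genotype labels, cre.neg and jun.wt, and strain, sex and exact age were not given in the sources used here. The labels identify no animals and do not say whether the uninjured ganglia came from injured mice, so p-values measure only the spread between these samples, which may be technical. The labels and the methods give 3 days, whereas the study's results text names an earlier time and L4 alone. Each sample was labelled with Cy5 and hybridised against a universal mouse reference RNA labelled with Cy3, with no dye swap, and every value below is a log2 ratio of sample over reference or a difference of such ratios.

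Sox proteins bind DNA through an HMG box and bend it, and they are grouped by the sequence of that box. Sox2 is a SoxB1 factor, known for its role in neural progenitors and in satellite and immature Schwann cells. The SoxC factors Sox4, Sox11 and Sox12 act in newly formed neurons, and Sox11 is known as a factor that injured sensory neurons switch on. Sox5 and Sox6, the SoxD factors, lack a domain of their own that activates or represses transcription. The SoxE factors Sox8, Sox9 and Sox10 act in the neural crest and glia, with Sox10 required for satellite glia and Schwann cells throughout life. A ganglion holds neurons, satellite glia, Schwann cells, blood vessels and macrophages together, and in such bulk samples fewer cells of a type and less RNA per cell cannot be told apart.

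Of the 25 Sox probes, 20 were above background on enough arrays to be tested, and 8 of these were called higher after injury by limma at an adjusted p under 0.05, compared with 10.5% of all 31186 probes tested (23.5% were called in either direction). These 8 were all 6 probes of Sox11 and 2 of the 3 probes of Sox9. No Sox probe was called lower, compared with 13.0% of all probes, and none was lower at an unadjusted p under 0.05 either. The groups did not overlap for the same 8 probes, where the injured arrays lay above every uninjured array, as they did for 10.1% of all probes. No Sox probe had all injured arrays below all uninjured arrays, as 12.5% of all probes did. The other 12 tested probes had log2 fold changes between −0.12 and 0.30. Their adjusted p in limma lay between 0.0799 and 0.997, and their 95% intervals reached from −0.47 to 0.55. The 5 probes that were not tested, 3 of Sox5 and 2 of Sox6, were too dim on most arrays. Since 6 of the 8 called probes belong to Sox11, the count by gene is smaller. On the brightest probe of each gene, 2 of the 9 Sox genes were called, compared with 24.8% of all 20898 genes called in either direction and 11.2% called higher. By class, 6 of 8 SoxC probes, 2 of 7 SoxE probes, 0 of 4 tested SoxD probes and 0 of 1 SoxB1 probe were called.

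**Figure D1:**
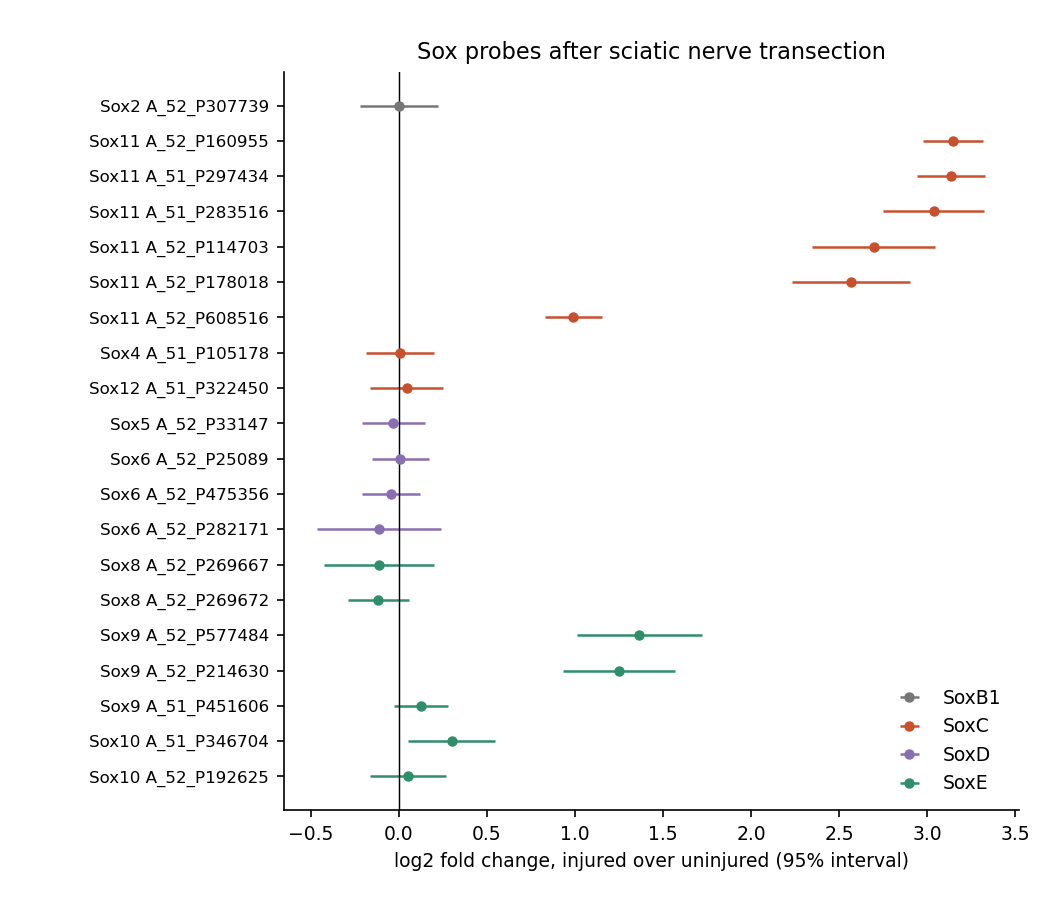
Log2 fold change of injured over uninjured DRG (x axis) for each of the 20 tested Sox probes (y axis, gene and probe name), coloured by Sox class, with bars for the 95% interval from limma. The 6 Sox11 probes and 2 Sox9 probes stand to the right of 0, from 0.99 to 3.15, and the intervals of the other Sox2, Sox4, Sox5, Sox6, Sox8, Sox9 and Sox12 probes and of 1 Sox10 probe include 0.

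Sox11 showed the largest rise of the 9 genes. Its brightest probe, A_52_P160955 (chr12:25170366-25170425, minus strand, build mm7), had log2 ratios of 1.11, 1.16, 0.98 and 1.08 on the uninjured arrays and of 4.13, 4.45, 4.15, 4.19 and 4.23 on the injured arrays. The groups were far apart, with every injured array at about the same height. This is a log2 fold change of 3.15 (SE 0.0763, limma adjusted p = 4.01e-09), or 8.86-fold with a 95% interval from 7.89 to 9.96. This probe held place 12 from the top among all 31186 probes by log2 fold change.

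The other Sox11 probes lie toward the 5′ end of the gene, and all rose on every injured array. A_51_P297434, 522 bases away, rose by 3.13 on the log2 scale (limma adjusted p = 6.31e-09). A_51_P283516, 3316 bases away (chr12:25173682-25173741), rose by 3.04 (limma adjusted p = 1.46e-07). A_52_P178018 and A_52_P114703, which lie 5842 and 6052 bases away, rose by 2.57 and 2.70. The differences between these 5 estimates were not tested. The most 5′ probe, A_52_P608516 (chr12:25177775-25177834), lies 7409 bases away and rose by 0.99 (SE 0.0734, limma adjusted p = 7.31e-06). It was also the dimmest, with a Cy5 signal over local background of 35.9 to 58.9 on uninjured and of 102 to 213 on injured arrays, whereas the brightest probe had 409 to 467 and 2763 to 5404. At such signals the offset of 50 added to the background correction pulls ratios toward 0. Recomputed, the log2 fold change of the most 5′ probe was 1.68 with no offset and 1.99 with Agilent's own ratio, against 3.39 and 3.44 for the brightest probe, so it remained the smallest of the 6 under both settings.

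**Figure D2:**
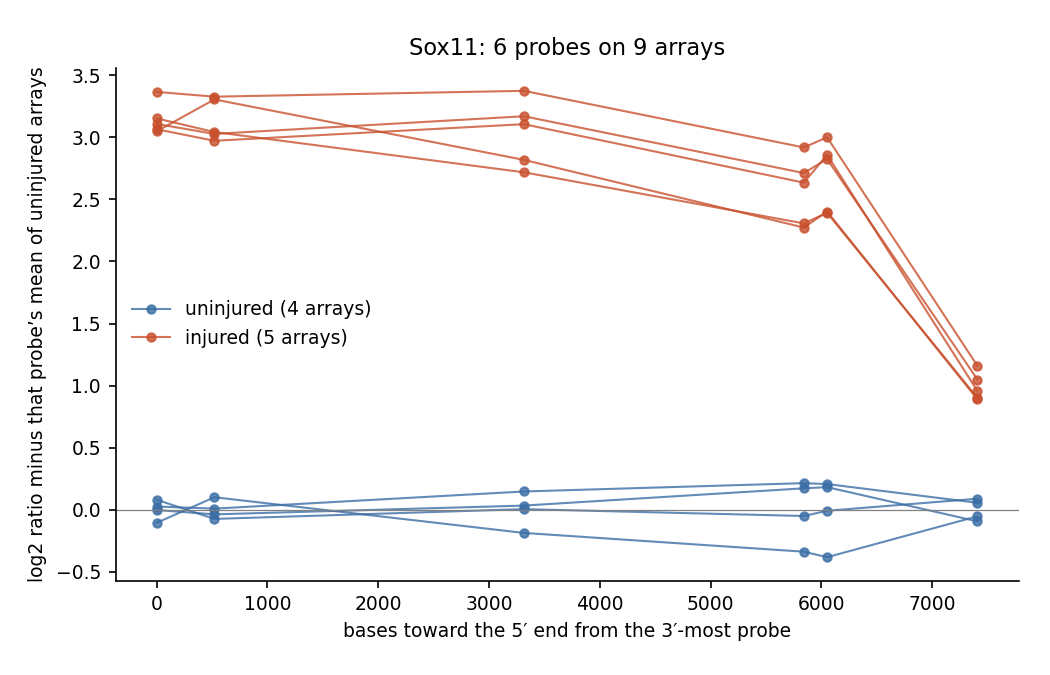
Log2 ratio of each Sox11 probe on each array minus that probe's mean over the uninjured arrays (y axis), placed by distance in bases from the 3′-most probe (x axis), with 1 line for each of 4 uninjured and 5 injured arrays. Injured arrays lie above uninjured arrays at all 6 probes, and the rise is smallest at the dim probe at 7409 bases, where it lies between 0.89 and 1.16.

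Across the 6 probes, the mean rise over the uninjured mean ranged from 2.42 on injured array 5 to 2.86 on injured array 2. The same mean lay between −0.16 and 0.11 on the uninjured arrays. The spread between injured arrays was small beside the difference between groups. The Cy3 reference channel alone gave log2 differences for Sox11 between −0.02 and 0.10, with the lowest adjusted p in limma at 0.541. The Cy5 channel alone gave a log2 fold change of 3.19 for the brightest probe.

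Neither of the other SoxC genes was called. Sox4, covered by 1 probe (A_51_P105178, chr13:28317744-28317803, minus strand, mm7), had log2 ratios of −1.21, −0.96, −1.17 and −0.92 on uninjured and of −1.12, −1.11, −1.16, −1.03 and −0.84 on injured arrays. These values overlap almost fully. The log2 fold change was 0.01, with a 95% interval from −0.18 to 0.20 (limma adjusted p = 0.960). It was −0.08 with median centring of the arrays and 0.18 with slide as a fixed block. The probe was bright, with a Cy5 signal over local background of at least 685 on every array.

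Sox12 was likewise covered by 1 probe (A_51_P322450, chr2:152138277-152138336, minus strand, mm7). Its log2 ratios were 0.16, 0.04, −0.06 and 0.11 on uninjured and 0.06, −0.06, 0.02, 0.10 and 0.41 on injured arrays. Only injured array 5 lay above every uninjured array. The log2 fold change was 0.04, with a 95% interval from −0.16 to 0.25 (limma adjusted p = 0.782), and −0.03 without that array.

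The difference between the changes was tested directly for 3 pairs with Sox11 and for 1 pair of factors linked with glia, on the brightest probe of each gene, with a two-sided exact permutation test over all 126 splits of the arrays and adjustment over the 4 pairs. Sox11 rose more than Sox4 by 3.14 on the log2 scale (95% interval from 2.91 to 3.41), and more than Sox12 by 3.10 (from 2.83 to 3.39). Each of these had p = 0.00794 (0.0106 after Benjamini-Hochberg adjustment) in the exact test, the smallest that these groups allow. On all 5 injured arrays both differences lay above those of every uninjured array. For all 3 pairs with Sox11, the rise of Sox11 itself set the outcome of the test. Their p-values therefore add no support beyond the Sox11 fit, and the splits took no account of slide.

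The 250 bases before the annotated start of each SoxC gene are shown because these genes share a class but differed in response. They were taken from RefSeq on build GRCm38.p6, whose coordinates are not those of the probes, and are written 5′ to 3′ on the minus strand, on which each gene lies, at chr12:27342719-27342968 for Sox11, chr13:28953700-28953949 for Sox4 and chr2:152398047-152398296 for Sox12. Capitals mark matches to the motifs CCAAT and GGGCGG on either strand.
Sox11: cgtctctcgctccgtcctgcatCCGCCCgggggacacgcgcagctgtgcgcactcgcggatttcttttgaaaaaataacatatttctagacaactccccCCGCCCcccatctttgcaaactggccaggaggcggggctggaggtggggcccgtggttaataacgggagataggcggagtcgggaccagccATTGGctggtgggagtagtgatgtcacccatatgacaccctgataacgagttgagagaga
Sox4: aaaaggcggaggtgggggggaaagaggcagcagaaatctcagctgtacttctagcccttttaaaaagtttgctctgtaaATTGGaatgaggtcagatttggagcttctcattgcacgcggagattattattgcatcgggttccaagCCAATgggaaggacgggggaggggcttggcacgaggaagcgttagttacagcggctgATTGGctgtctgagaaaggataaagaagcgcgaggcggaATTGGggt
Sox12: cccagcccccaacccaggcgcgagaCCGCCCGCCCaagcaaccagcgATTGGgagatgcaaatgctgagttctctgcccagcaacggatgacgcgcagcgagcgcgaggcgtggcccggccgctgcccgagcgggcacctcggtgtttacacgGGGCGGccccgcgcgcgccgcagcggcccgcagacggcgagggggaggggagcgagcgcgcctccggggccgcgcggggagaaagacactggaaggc

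CCAAT, a box bound by the factor NF-Y, was found once before Sox11 and Sox12 and at 4 places before Sox4, and 33.8% of the 32851 promoters of this length in the table held it. GGGCGG, which Sp factors bind, was found at 2 places before Sox11, at 3 before Sox12 (a pair of which overlap) and not before Sox4, and 32.7% of promoters held it. TGANTCA, the AP-1 motif, TGACGTCA, the cyclic AMP response element, AACAAT, a core Sox motif, and TATAAA were each searched on both strands and had no match in the 3 windows. They were held by 6.75%, 1.55%, 9.42% and 12.4% of all promoters. The GC content of the windows was 58.0% for Sox11, 50.8% for Sox4 and 74.4% for Sox12, beside a median of 52.4% over all promoters. Of the 9 genes, 7 had an entry, and Sox9 and Sox10 had none.

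Among the SoxE genes, Sox9 was the one called. Probe A_52_P577484 (chr11:112894739-112894798, plus strand, mm7) had log2 ratios of −2.25, −2.80, −2.14 and −1.86 on uninjured and of −0.98, −0.89, −0.89, −0.65 and −1.07 on injured arrays. The groups were apart, and uninjured array 2 was the lowest. It rose by 1.36 on the log2 scale (SE 0.161, limma adjusted p = 0.000182), or 2.58-fold with a 95% interval from 2.01 to 3.29.

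Probe A_52_P214630, which lies further 3′ (chr11:112896540-112896599), was printed as 10 spots on each array and gives the best measure of spot error. Its mean log2 ratios were −1.99, −2.29, −1.77 and −1.52 on uninjured and −0.69, −0.64, −0.91, −0.49 and −0.48 on injured arrays. Within an array the 10 spots had an SD between 0.0445 and 0.101, so that the arrays of a group differed by more than their spots did. The rise was 1.25 on the log2 scale (SE 0.144, limma adjusted p = 0.000158), or 2.38-fold with a 95% interval from 1.91 to 2.96. The array with the lowest Sox9 value was the same for both probes, and without uninjured array 2 the log2 fold changes were 1.19 and 1.12.

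The remaining Sox9 probe, A_51_P451606, has a location that spans more than a probe length in the annotation (chr11:112892041-112892893). Its log2 fold change was 0.13 with a 95% interval from −0.03 to 0.28 (limma adjusted p = 0.223), and the groups overlapped. It was dim in both channels, with Cy5 signals over local background of 23.0 to 54.1 and Cy3 signals of 27.9 to 42.3. The Cy3 signal of A_52_P577484 was 734 to 1030. With Agilent's own ratio the log2 fold change of the dim probe was 0.46 and was not called either (limma adjusted p = 0.176). Whether the 3 probes differ in change was not tested.

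**Figure D3:**
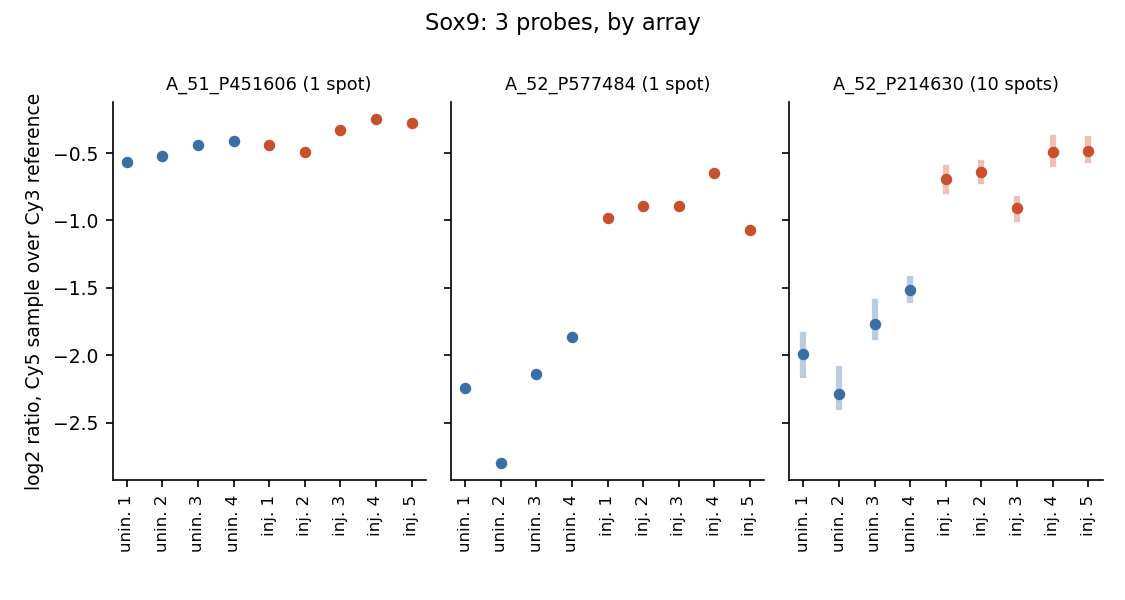
Log2 ratio of sample over reference (y axis) for the 3 Sox9 probes on each array (x axis, unin. for uninjured and inj. for injured), with a bar from the lowest to the highest of the 10 spots for A_52_P214630. Injured arrays lie above every uninjured array for A_52_P577484 and A_52_P214630, whereas the values of the dim probe A_51_P451606 overlap between groups.

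Sox10, the factor that marks all glia of the ganglion, was not called on either of its probes. Probe A_51_P346704 (chr15:79238027-79238086, minus strand, mm7), the brightest Sox probe with a Cy5 signal of 4260 to 9957 over all arrays, had log2 ratios of 4.24, 3.91, 3.81 and 3.94 on uninjured and of 4.01, 4.37, 4.20, 4.27 and 4.52 on injured arrays. Uninjured array 1 lay above injured arrays 1 and 3, so the groups overlapped. The difference between group means was 0.30 on the log2 scale (SE 0.112, limma adjusted p = 0.0799), or 1.23-fold with a 95% interval from 1.04 to 1.46. It was called without uninjured array 1 (0.39, limma adjusted p = 0.0344), without injured array 1 (0.36, limma adjusted p = 0.0324) and with slide as a random block (0.37, limma adjusted p = 0.0128), whereas it was 0.06 with slide as a fixed block. The random block had a negative correlation within slides, −0.202. With it 10337 of all probes were called, against 7333 in the main fit.

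The other Sox10 probe, A_52_P192625 (chr15:79239405-79239464), had a log2 fold change of 0.05 with a 95% interval from −0.17 to 0.27 (limma adjusted p = 0.761), and −0.14 with Agilent's own ratio. The reference was above background for this probe on 0 of 9 arrays, so its ratio rests on a denominator near background. Sox11 rose more than Sox10 by 2.85 on the log2 scale (95% interval from 2.58 to 3.12, exact permutation p = 0.00794, 0.0106 after adjustment). Every injured array showed a higher Sox11 over Sox10 value than every uninjured array, which followed from the rise of Sox11 itself.

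Sox8, which acts beside Sox10 in glial development, had log2 fold changes of −0.12 (95% interval from −0.29 to 0.06, limma adjusted p = 0.323) for A_52_P269672 (chr17:23749058-23749117) and of −0.11 (from −0.42 to 0.20, limma adjusted p = 0.628) for A_52_P269667 (chr17:23751840-23751899). The groups overlapped for both probes. A_52_P269672 was at −0.59 with Agilent's own ratio (limma adjusted p = 0.0902) and at −0.35 with an offset of 0 (limma adjusted p = 0.0724), still not called. On A_52_P269667 uninjured array 1 was the lowest of all arrays at 0.41 and uninjured array 4 the highest at 1.11, and with slide as a fixed block its log2 fold change was 0.38.

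Sox2, on 1 probe (A_52_P307739, chr3:34459231-34459290, plus strand, mm7), had log2 ratios of 3.12, 2.98, 3.01 and 2.98 on uninjured and of 3.17, 3.31, 2.93, 2.85 and 2.85 on injured arrays. Of the injured arrays, 2 lay above and 3 below every uninjured array, and the SD was 0.208 against 0.0639 among uninjured arrays. The log2 fold change was 0.00 with a 95% interval from −0.22 to 0.22 (limma adjusted p = 0.997), and its sign varied with the setting, from −0.22 with the background fitted on all spots to 0.17 with an offset of 0. The reference was above background on 0 of 9 arrays. The Cy5 signal over local background, 665 to 792 on uninjured and 415 to 934 on injured arrays, was well above it, and the Cy5 channel alone gave a log2 fold change of 0.00. The change of Sox2 minus that of Sox10 was −0.30 (95% interval from −0.70 to 0.11, exact permutation p = 0.135). Sox2ot, a noncoding RNA gene that overlaps Sox2 and was picked after its values were seen, had 3 probes around it, with log2 fold changes of −0.08, −0.05 and 0.08, none of them called.

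The SoxD genes had 9 probes, of which 4 were tested. The tested Sox5 probe (A_52_P33147, chr6:143919727-143919786, minus strand, mm7), which the array lists under the older name A730017D01Rik, had a log2 fold change of −0.03 with a 95% interval from −0.21 to 0.15 (limma adjusted p = 0.832). With Agilent's own ratio it was −0.37 and was not called (limma adjusted p = 0.207), and its sign turned with the background fitted on all spots (0.01). The other Sox5 probes, A_51_P500318, A_52_P352356 and A_52_P634176, were not tested. In Cy5, 1 value among them, that of A_52_P352356 on an injured array, was above background.

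For Sox6, A_52_P282171 (chr7:111391015-111391074, minus strand, mm7) was the bright probe. Its log2 ratios were 2.57, 1.92, 2.22 and 2.72 on uninjured and 2.22, 2.42, 2.30, 2.38 and 1.91 on injured arrays, a log2 fold change of −0.11 with a 95% interval from −0.47 to 0.24 (limma adjusted p = 0.669). Here the uninjured arrays spread more widely, with an SD of 0.359 against 0.204. A_52_P475356 and A_52_P25089, dimmer probes for which the reference was above background on no array, had log2 fold changes of −0.04 and 0.01. With Agilent's own ratio these were −0.45 and −0.30, and neither was called (limma adjusted p = 0.427 and 0.708). A_52_P394652 and A_52_P284996 were above background in Cy5 on 2 uninjured arrays and 1 injured array, and on 0 arrays, and were not tested.

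**Figure D4:**
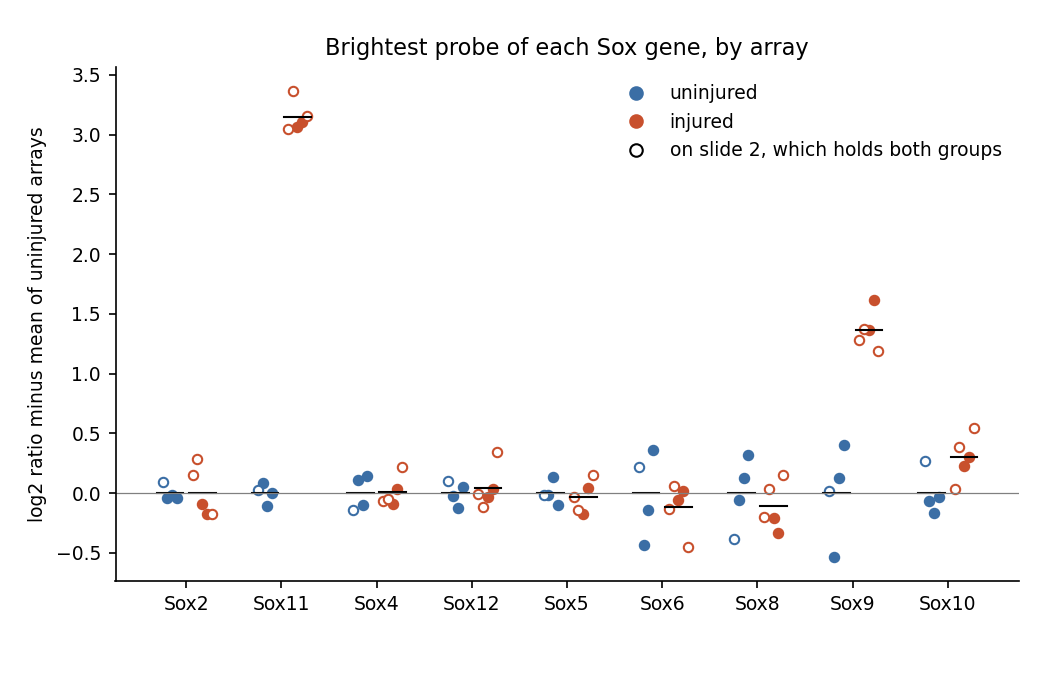
Log2 ratio of the brightest probe of each Sox gene minus its mean over the uninjured arrays (y axis), by array and group (x axis), with a line at each group's mean and open circles for the 4 arrays on slide 2. Sox11 and Sox9 are the 2 genes whose injured arrays lie above all uninjured arrays, and the means of the other 7 genes lie between −0.11 and 0.30.

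The arrays lay on 3 slides, which overlap in large part with the groups. Slide 2 held both, with uninjured array 1 and injured arrays 1, 2 and 5. On this slide alone the differences for the 8 called probes lay between 0.93 and 3.22 on the log2 scale, with every injured array above the uninjured array. With slide as a fixed block, a fit in which slide 2 alone carries the comparison, all 8 remained called (limma adjusted p from 2.79e-05 to 0.0479), the highest of these for Sox9 probe A_52_P577484. The other 12 differed by −0.39 to 0.38 on slide 2 and were not called in that fit. The slide comparison rests on a single uninjured array. Over all arrays 70.2% to 78.4% of probes were above background in Cy5.

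Of the other Sox genes, 8 of the 10 listed were tested, on the brightest probe of each gene. Of these 8, Sox7 alone was called, beside 11.2% of all genes called higher. Its groups did not overlap, as for 10.8% of all genes in the same direction and 13.1% in the other. Sox7, a SoxF factor of blood vessel endothelium, rose by 1.15 on the log2 scale (SE 0.0848, limma adjusted p = 7.10e-06), with log2 ratios of −0.63 to −0.31 on uninjured and 0.53 to 0.80 on injured arrays. The other SoxF genes, Sox17 and Sox18, had log2 fold changes of 0.24 and 0.33 and were not called (limma adjusted p = 0.118 and 0.224). Sox13, a SoxD gene, was at 0.06 and Sox1, a SoxB1 gene, at −0.02. The median over the 8 genes was 0.11, beside 0.00 over all genes. Sox3 and Sox30 were too dim to test.

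Of 12 genes linked with SoxE factors in glia, 0 were called in either direction by limma, and 1 was higher and 0 lower at an unadjusted p under 0.05. Their median log2 fold change was 0.09, and turned to −0.14 with slide as a fixed block. The myelin protein gene Mag had the highest value, 0.74 (limma adjusted p = 0.0904), which was −0.02 with slide as a fixed block, followed by Pmp22 at 0.35 (limma adjusted p = 0.392). The lowest were Ednrb, the endothelin receptor B, at −0.14, and Pou3f1, a factor of the promyelinating Schwann cell, at −0.10. Egr2, a factor of myelinating Schwann cells, was at 0.00.

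Of 7 genes linked with SoxC factors, 2 were called higher and 0 lower, beside 11.2% of all genes called higher. At an unadjusted limma p under 0.05, 3 were higher and 1 was lower. The list was chosen with earlier results of these data known, so its count is a description only. Sprr1a, a small proline-rich protein made by injured neurons, rose by 4.99 on the log2 scale (limma adjusted p = 1.16e-09), and the neurotrophin gene Bdnf by 0.84 (limma adjusted p = 0.000163). Tubb3, a neuronal tubulin known as a target of SoxC factors, was at 0.16 (limma adjusted p = 0.352) and Dcx, a microtubule protein of young neurons, at −0.39 (limma adjusted p = 0.0954). Tead2 was at 0.22 and Arpc3 at 0.08. The list's median log2 fold change was 0.16, and was 0.07 with median centring of the arrays.

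Markers of the cell types of the ganglion were measured beside the Sox genes. The tested markers were above background in Cy5 on every array. Aurkb of dividing cells was too dim to test, and Drgx of the neuronal list was not named on the array. Over all genes 24.8% were called, 11.2% higher and 13.6% lower, and the counts of these short lists are to be read against these shares. Of 9 neuronal markers, 1 was called, Isl1, a homeodomain factor of sensory neurons, which fell by 0.51 on the log2 scale (limma adjusted p = 0.000143), and 4 were lower at an unadjusted p under 0.05. With median centring Snap25 (−0.38, limma adjusted p = 0.0366) and Scn10a (−0.35, limma adjusted p = 0.0424) were called lower as well. The neuronal median was −0.14, and the mean over the list ranged from −0.10 to 0.13 on uninjured and from −0.30 to 0.07 on injured arrays, relative to the uninjured mean. Of 8 satellite glia markers, 2 were called higher, the glutamine synthetase gene Glul by 0.78 (limma adjusted p = 0.000135) and the glutamate transporter gene Slc1a3 by 0.22 (limma adjusted p = 0.0395), the latter not with median centring (limma adjusted p = 0.397) nor with slide as a fixed block (limma adjusted p = 0.240). Fabp7 and Kcnj10, which are also marks of satellite glia, were at −0.01 and −0.02. The lowest of this list were Ednrb at −0.14 and Gja1 at −0.12, and neither was called. The satellite glia median was −0.01 (0.05 without uninjured array 1), and the list mean ranged from −0.14 to 0.13 on uninjured and from −0.06 to 0.24 on injured arrays. None of 8 myelinating Schwann cell markers was called in either direction by limma (2 were higher at an unadjusted p under 0.05), and their median was 0.12, which turned to −0.36 with slide as a fixed block and was 0.0056 without uninjured array 2.

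Of 9 macrophage markers, 2 were called higher, Aif1 by 0.90 (limma adjusted p = 0.00755) and Cd14 by 0.83 (limma adjusted p = 0.00178). At an unadjusted limma p under 0.05, 6 macrophage markers were higher and 0 lower. The macrophage median was 0.72, with the list mean between −0.40 and 0.35 on uninjured and between 0.11 and 1.06 on injured arrays. Of 6 endothelial markers, 1 was called higher, Tek, the angiopoietin receptor, by 0.47 (limma adjusted p = 0.0257), and the median was 0.17. For this list 3 genes were higher and 0 lower at an unadjusted limma p under 0.05. With slide as a fixed block Aif1, Cd14 and Tek were not called, whereas Esam, an endothelial adhesion molecule, was (1.52, limma adjusted p = 0.00775, against 0.60 and 0.0838 without the block). The lists of red blood cell (4 tested), muscle (5) and dividing cell (5) genes had medians of 0.71, 1.03 and 0.25 and 0 genes called in either direction, with 3, 1 and 1 higher at an unadjusted p under 0.05. The muscle list mean reached 3.31 on injured array 4 and was −0.11 on injured array 3. The part of these cell types in the Sox values was not tested.

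**Figure D5:**
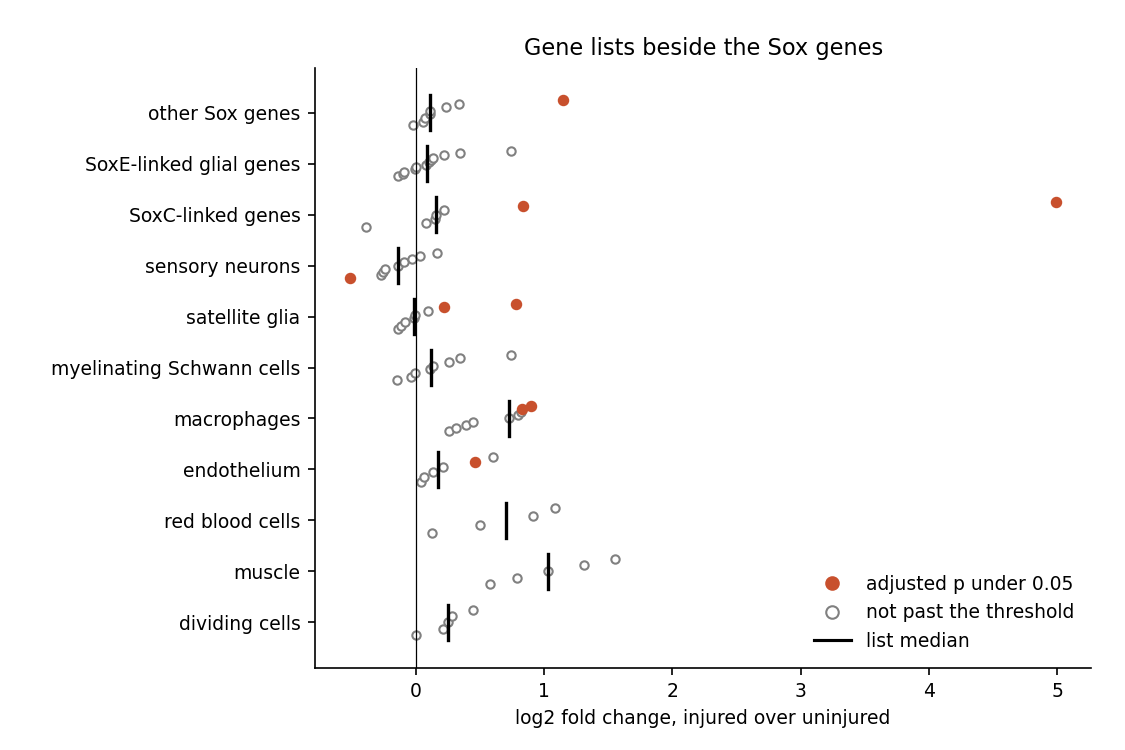
Log2 fold change of injured over uninjured DRG (x axis) for the brightest probe of each tested gene of 11 lists (y axis), filled where limma's adjusted p was under 0.05, with a line at each list's median. Sprr1a at 4.99 is the farthest point, and the medians range from −0.14 for sensory neurons to 1.03 for muscle.

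The genes most like Sox11 over the 9 arrays, by Pearson's r on the brightest probe, were Smim3, Atf3, Nts, Rnf183 and Plaur, each with r between 0.998 and 0.999. All 9 arrays share the reference, and these r values reflect the gap between the groups more than the order within them. Atf3, a bZIP factor induced by injury, rose by 5.14 on the log2 scale, the neuropeptide gene Nts by 2.58 and Plaur, the urokinase receptor, by 2.47. For Sox2 the most similar genes were Donson, Bpifb2, Pde7b, Nyap2 and Mpp1 (r from 0.928 to 0.981), with log2 fold changes between −0.07 and 0.02. For Sox10 they were a transcript listed as TC1426818, Atf7, Itga5, Cd300lg and Pmf1 (r from 0.935 to 0.966), with log2 fold changes from 0.13 to 0.25, none of which was called. All of these genes were picked as the highest r among all tested genes, over 9 arrays. Whether unrelated genes would reach such r values was not tested, so the lists are a description only.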

How the data were processed

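RNA of L3/L4 DRG was measured on 9 two-colour Agilent arrays. The deposited scanner files, written by Agilent's Feature Extraction per the file headers, hold the mean intensity of each spot and its local background in each channel, with probe locations on mouse build mm7. They also hold Agilent's log10 ratio of Cy5 over Cy3, which per the file headers was corrected for background and dye before it was deposited. The table of processed values that the authors deposited holds 1 log2 ratio, sample over reference, for each probe and array, made with limma per the submitters' processing notes. The 25 Sox probes and the gene lists were chosen with earlier results of these data known.

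The deposited intensities were corrected with normexp (offset 50) in limma 3.58.1 (R 4.3.3), fitted without spots marked as non-uniform in local background, normalized within each array by loess, and averaged over repeated spots of a probe. With these spots in the fit, injured array 2 had a mean Cy5 background of −358 in place of −15.5 and a slope of 0.813 against the authors' values. Without them the slope was 1.00 to 1.01 on every array. Control spots had no weight, spots marked as outliers were left out (0 of 306 Sox values), and 31186 of 41174 probes, with a Cy5 signal well above background on 4 or more arrays, were tested by limma with Benjamini-Hochberg adjustment over all of them. A fold change is called at an adjusted p under 0.05. Intervals cover 95%. For gene lists the brightest tested probe of a gene was used. Pairs of genes were compared by an exact permutation test in Python 3.11.15. The precision is limited by the number of arrays. Tested on simulated data of the same size with 200 changed probes, the procedure found 98% of probes changed by a log2 value of 1. It found 73% of those changed by 0.5, counting a call in either direction, and 6.56% of its calls were unchanged probes. The simulated noise was normal, independent between probes and arrays and free of slide effects. Whether these shares hold for arrays whose slides overlap with the groups was not tested.

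The report names every Sox probe, the genes with the 2 highest and 2 lowest log2 fold changes of most lists with others for context, and the 5 genes most like Sox11, Sox2 and Sox10. Alternatives in the background correction, normalization, channel, filter, slide, array weights, threshold and left-out arrays were run. Promoter sequences are from RefSeq (GRCm38.p6).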

Additional observations from a re-analysis of the deposited data

Results flagged for a closer look

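Among 70 sets of values, each the uninjured or the injured arrays for 1 tested Sox probe, pair or gene list, 0 held an array that stood apart from the others by Dixon's test at the 95% level, where chance gives about 1 in 20.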

How the results depend on the processing

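The 8 called Sox11 and Sox9 probes were called in every setting that tested them, except in the Cy3 channel alone. The number of Sox probes called was 0 in the Cy3 channel alone and 2 of 9 with the brightest probe of each gene (5308 of 20898 for all genes), and 8 to 9 with each array left out. Of all probes, 33 were called in the Cy3 channel alone, 3954 at an adjusted p under 0.01, 3519 with median centring and 1505 with slide as a fixed block (55.6% of them higher, against 44.6%), and 5358 to 7484 with each array left out. Calls in the Cy3 channel count differences in the reference. The highest numbers were 10337 with slide as a random block and 8890 with array weights, against 7333 in the main fit.

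On slide 2 alone, Sox11 minus Sox4, Sox12 and Sox10 was 2.98, 3.19 and 3.10, and Sox2 minus Sox10 was −0.06. The exact permutation test cannot decide there, because 1 array against 3 allows too few splits. With the arrays of all slides and the Cy5 channel alone, Sox2 minus Sox10 passed (−0.28, exact permutation p = 0.0397). Of 18 alternatives for this pair, 1 gained the threshold. With each array left out, the 4 differences ranged from 3.07 to 3.20, 3.01 to 3.18, 2.77 to 2.91 and −0.40 to −0.19.

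Log2 fold changes near 0 turned sign for 9 probes, none of them called, and the cause was not tested. For Sox2 the value was −0.0334 with the Agilent ratio, −0.0033 with the authors' values, −0.22 with the background fitted on all spots, −0.0312 with median centring, −0.0468 with no background correction, −0.00458 with slide as a fixed block and −0.0710 to 0.0443 with each array left out. For Sox4 it was −0.0102 with the Agilent ratio, −0.0160 with the authors' values, −0.0033 with an offset of 0, −0.0772 with median centring, −0.0254 with slide as a random block and −0.0441 to 0.0560 with each array left out. For Sox12 it was −0.0239 with slide as a fixed block and −0.0306 to 0.0853 with each array left out. For Sox5 A_52_P33147 it was 0.0076 with the background fitted on all spots, 0.0054 with slide as a fixed block and −0.0768 to 0.0138 with each array left out. For Sox6 A_52_P25089 it was −0.30 with the Agilent ratio, −0.0219 with array weights, −0.0424 with the background fitted on all spots, −0.0303 with an offset of 0, −0.0228 with no background correction, −0.0294 with slide as a fixed block and −0.0372 to 0.0578 with each array left out. For Sox6 A_52_P475356 and A_52_P282171 it was −0.10 to 0.0020 and −0.26 to 0.0073 with each array left out. For Sox10 A_52_P192625 it was −0.14 with the Agilent ratio, −0.11 with the background fitted on all spots, −0.0229 with an offset of 0, −0.0342 with slide as a fixed block and −0.0166 to 0.12 with each array left out. For Sox8 A_52_P269667 it was 0.38 with slide as a fixed block.

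No paired analysis was possible because no label ties a sample to an animal and replicate numbers here follow accession order. Over all results and alternatives, 740 values kept their direction and their side of the threshold or moved by less than the spread between arrays. A further 43, all log2 fold changes of single probes, changed sign, while 4 values gained and 3 lost the threshold. The 18 that moved were counts of calls and list medians. List medians that turned sign are not among the 43. With the Agilent ratio, which adds no offset of 50, log2 fold changes were farther from 0 for several dim probes. Among these were Sox11 A_52_P608516, Sox8 A_52_P269672, Sox5 A_52_P33147, Sox6 A_52_P475356 and Sox9 A_51_P451606. Brighter probes moved the same way, Sox11 A_52_P160955 from 3.15 to 3.44 and Sox9 A_52_P577484 from 1.36 to 1.66. The cause of these differences was not tested.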
